A study of Mus musculus with 2 samples.

Results

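The genes described here are the nuclear-encoded subunits of the mitochondrial respiratory chain and ATP synthase, in single cells of a mouse colorectal tumour. They were taken as every gene whose symbol begins with Ndufa, Ndufb, Ndufc, Ndufs, Ndufv, Uqcr, Cox4 to Cox8 or Atp5, plus Sdha, Sdhb, Sdhc and Sdhd. The symbols matched 94 of the 32285 genes in the count tables. By function, 36 encode subunits of complex I, 4 of complex II, 8 of complex III, 12 of complex IV and 17 of complex V, which makes 77 ubiquitous subunits. A further 8 are isoforms known from particular tissues (Cox4i2, Cox6a2, Cox6b2, Cox7a1, Cox7b2, Cox8b, Cox8c and Ndufa4l2), and 8 are Ndufaf genes, which encode assembly factors of complex I rather than subunits. The last, Ndufb1-ps, is annotated as a non-coding RNA. Ndufa4 is counted with complex IV, where its protein is now placed despite its name. Cox7a2l, a paralogue of Cox7a2, is counted there too.

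CT26, a mouse colorectal carcinoma line, was grown under the skin of wild type BALB/c mice aged 5 weeks. Mice received vehicle, or WQ-2101 at 20 mg/kg into the peritoneum once a day from a tumour size of about 100 mm³, and tumours were taken on day 17 after implantation. The series title names PHGDH, which begins serine synthesis, and WQ-2101 is labelled as its inhibitor. The whole dissociated tumour was loaded on a droplet platform that counts the 3′ ends of transcripts, with 1 library per group, sharing 1 batch label, and how many mice gave each library is not stated in the sources used here. No value below therefore has a replicate error, no test of treatment was possible, and every interval is an exact 95% interval that covers counting error only.

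Complexes I, III and IV pass electrons from NADH to oxygen and pump protons across the inner mitochondrial membrane, complex II feeds in electrons from succinate, and complex V uses the proton gradient to make ATP. Each of these complexes except complex II also holds subunits encoded by mitochondrial DNA, so that transcripts from both genomes are needed. A few complex IV subunits, and Ndufa4, have second isoforms that are best known from muscle, lung, testis or cells kept at low oxygen.

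Totals were 184754398 UMIs (counted molecules) over 14374 barcodes in vehicle and 185587327 UMIs over 18142 barcodes in WQ-2101, and 73 barcode sequences were found in both. After filtering, 13668 vehicle cells (median depth 10742.5 UMIs) and 17294 WQ-2101 cells (8048 UMIs) remained. Cells were assigned to classes by summed marker genes, none of which is a respiratory chain gene. The gate for tumour cells found 6424 vehicle and 8118 WQ-2101 cells, that for macrophages 3843 and 3416, and that for T cells 427 and 491. Those 3 classes had at least 100 cells in each library and were compared between libraries. The NK, B, dendritic, neutrophil, fibroblast, endothelial and mural (pericyte and vascular smooth muscle) gates found between 7 and 175 cells per library. No class was given to 17.0% of vehicle and 28.0% of WQ-2101 cells. Tumour cells were defined with Ptprc, the pan-leukocyte gene, low. They had it at 5.58 and 7.60 CPM (UMIs scaled to 1000000 per class and library), against 421 and 476 CPM in macrophages. Its low level is therefore no separate check of that gate. T cells also held macrophage markers (13 of 13 detected, 1132 and 1099 CPM), and mural cells fibroblast markers (4811 and 3639 CPM), and the part of that RNA in their values was not tested.

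Short stretches upstream of 4 members are shown. Of these, 3 hold motifs that were more frequent in these promoters than in all. The fourth is Ndufa4, which is described at length below. The sequences are RefSeq's, on build GRCm38.p6, and no exon of the GENCODE vM21 annotation covers them. Capitals mark matches within the stretch to a motif on either strand: GCGC, any base and TGCGC, known for the factor NRF1, or CCGGAAG, known for ETS family factors such as GABP.

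Sdhd, a membrane anchor of complex II (chr9:50603850-50603909, minus strand): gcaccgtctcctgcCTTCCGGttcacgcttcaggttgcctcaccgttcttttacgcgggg
Ndufb4, an accessory subunit of complex I (chr16:37654454-37654603, minus strand): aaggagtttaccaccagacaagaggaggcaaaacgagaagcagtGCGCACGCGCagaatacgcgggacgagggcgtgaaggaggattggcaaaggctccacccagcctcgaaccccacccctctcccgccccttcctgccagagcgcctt
Cox6a1, the ubiquitous form of a complex IV subunit (chr5:115348982-115349129, minus strand): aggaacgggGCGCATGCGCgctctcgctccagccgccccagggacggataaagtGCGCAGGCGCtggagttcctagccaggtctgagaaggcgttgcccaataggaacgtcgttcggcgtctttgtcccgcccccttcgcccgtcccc
Ndufa4, which has no match to these motifs (chr6:11907498-11907647, minus strand): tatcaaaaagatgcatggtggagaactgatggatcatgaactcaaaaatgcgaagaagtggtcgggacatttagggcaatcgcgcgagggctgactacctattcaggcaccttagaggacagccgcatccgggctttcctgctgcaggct

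RefSeq windows of 300 bases (250 before to 50 after the start) were found for 75 of the 94 genes, in 80 windows. The NRF1 letters were in 20 of these 80 windows (25%), against 4.60% of all 32851 windows in the table. ETS letters were in 19 windows (23.75%), against 8.86% of all windows. Most member windows thus lacked the NRF1 letters and most lacked the ETS letters, as that of Ndufa4 did. The letters AAGATGGCG, known for the factor YY1, were in 8 (10%), against 1.4%. Motifs known from low oxygen and Notch signalling stood near the table's share: ACGTG in 22.5% against 19.6%, and TTCCCAC in 6.25% against 6.38%. These are matches of letters, not sites shown to be bound.

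Respiratory chain genes took a similar share of the transcriptome in most cell classes. The 94 genes summed to 17799.7 CPM in vehicle and 17342.3 CPM in WQ-2101 tumour cells, to 20095.1 and 19891.5 CPM in macrophages, and to 20022.8 and 19109.7 CPM in T cells. Fibroblasts had 17089.8 and 16561.1 CPM, and dendritic cells 16886.8 and 15736.6 CPM. In the smaller classes the sums were 18507.2 and 20115 CPM in NK cells, 17173.4 and 17347.8 CPM in endothelial cells, and 22527.3 and 19297.2 CPM in mural cells. B cells, with 7 vehicle cells, stood lower at 10611.5 and 12464.1 CPM.

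Neutrophils, short-lived cells known to rely on glycolysis, had the lowest sum of any class in both libraries, 7263.78 CPM in vehicle (interval 6841 to 7706) and 11215 CPM in WQ-2101 (10576 to 11883). These came from 133 and 56 cells with medians of 1043 and 969 UMIs, too few to compare the libraries under the rule used here. Ribosomal protein genes differed between the libraries in the same cells, at 54139 and 120749 CPM, and tumour markers stood at 581 and 888 CPM. The part of those differences in the respiratory chain values was not tested.

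**Figure D1:**
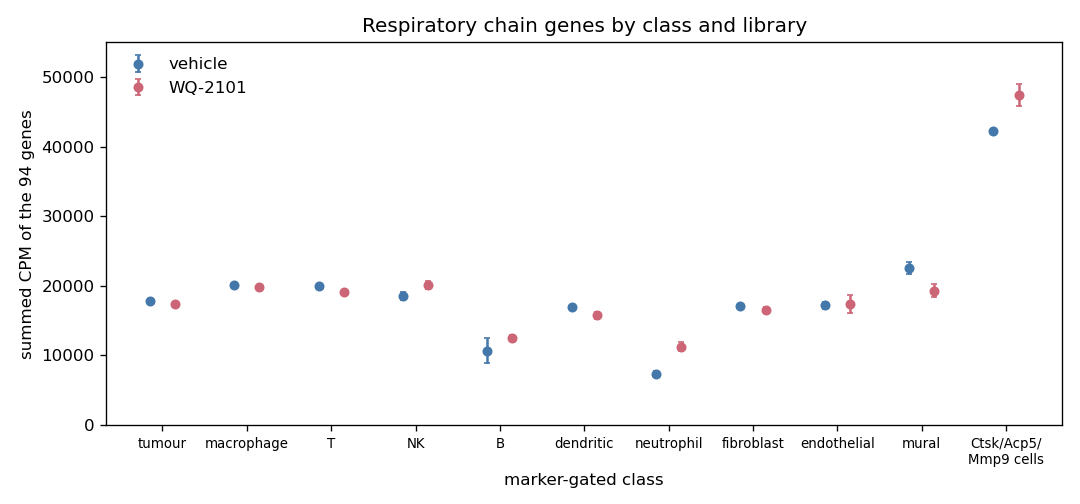
Summed CPM of the 94 respiratory chain genes (vertical axis) in each marker-gated class (horizontal axis), with 1 point per library and exact 95% Poisson intervals. Neutrophils and B cells sit lowest, at 7263.78 to 12464.1 CPM, and cells with Ctsk, Acp5 and Mmp9 highest, at 42260.9 and 47434.8 CPM.

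The first question was whether treatment went with a change in these genes within a class. In tumour cells the chain was nearly level: the summed ratio of WQ-2101 to vehicle was 0.974 (0.972 to 0.976), and the members' median log2 ratio was -0.05, against -0.02 over all 10000 genes tested. The sum turned to 1.01 with each Leiden cluster (a group of cells with similar transcriptomes) at the same share in both libraries, and to 1.00463 with cells weighted alike. A log2 ratio here is that of CPM plus 5, for genes with a mean of at least 5 CPM, and a change of at least 1.2-fold either way is called higher or lower. Of 86 members tested, 3 were higher and 4 lower, against a background of 5.9% and 6.24% of all genes. None reached 1.5-fold in either direction, where the background was 0.86% higher and 0.41% lower. The 8 members not tested were the 8 tissue-type isoforms, all under 5 CPM.

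By complex, the tumour cell ratios stayed between 0.896 and 1.03. Complex II, which also serves the TCA cycle as succinate dehydrogenase, had the lowest, with a sum of 313 CPM in vehicle and 280 CPM in WQ-2101 (ratio 0.896, 0.883 to 0.909). With clusters at the same share it was 0.936. All 4 of its subunits were below 0 on the log2 scale, though none passed 1.2-fold. Sdhd was at 40.6 and 33.7 CPM (log2 -0.24), Sdhc at 81.1 and 69.1 CPM (log2 -0.22), Sdhb, the iron-sulfur subunit, at 107 and 97.1 CPM (log2 -0.13), and Sdha, the flavoprotein, at 84.4 and 80.3 CPM (log2 -0.07). Complex III stood at 1609 and 1665 CPM (ratio 1.03), with 5 of its 8 subunits above 0. Complexes I, IV and V had ratios of 0.970, 0.980 and 0.955.

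Single members in tumour cells lay on both sides within a complex. Atp5f1, which encodes a peripheral stalk subunit of ATP synthase, had the lowest ratio, with 424 CPM (421 to 428) in vehicle and 330 CPM (326 to 333) in WQ-2101, a log2 ratio of -0.36. Ndufa4 was at 261 and 208 CPM (log2 -0.32). Ndufb3 and Ndufa1, accessory subunits of complex I, were at 114 and 90.6 CPM (log2 -0.32) and at 83.9 and 67.9 CPM (log2 -0.28). On the higher side were Ndufaf8, a complex I assembly factor, at 58.4 and 73.0 CPM (log2 0.30), Ndufv3, an accessory subunit of the NADH-binding arm, at 83.5 and 102 CPM (log2 0.27), and Atp5e, the epsilon subunit of ATP synthase, at 280 and 338 CPM (log2 0.27). With both directions present, no complex except II had all its subunits on 1 side of 0. Of the core subunits, Ndufs1 (log2 -0.11), Ndufv1 (0.10), Uqcrc1 (0.02), Cox4i1 (-0.09), Atp5a1 (-0.11) and Atp5b (0.04) all stayed within 1.2-fold. Ndufs7 of complex I, also within 1.2-fold, lay further from 0, at 157 and 183 CPM (log2 0.21), as did Sdhc and Sdhd above.

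In macrophages the summed ratio was 0.990 (0.986 to 0.994), and 1 of 88 members was higher and 4 were lower, against 10.7% and 5.57% of all genes tested. None passed 1.5-fold (background 2.13% higher and 0.448% lower). Ndufv3 was the higher one, at 174 and 218 CPM (log2 0.32), which is the side it took in tumour cells. Ndufa4 was lowest, at 154 and 113 CPM (log2 -0.42), followed by Sdhd at 43.8 and 33.9 CPM (log2 -0.33), Ndufb6 at 119 and 97.5 CPM (log2 -0.28) and Ndufb8 at 322 and 266 CPM (log2 -0.27). Ndufb6 and Ndufb8 are accessory subunits of the membrane arm of complex I. Part of the macrophages lay in a Leiden cluster of 102 vehicle and 2885 WQ-2101 cells, most of them without a class. Without that cluster, 3829 of 3843 vehicle and 3083 of 3416 WQ-2101 macrophages remained. Ndufa4 was at 292 and 233 CPM over all cells of that cluster.

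T cells had fewer UMIs and wider intervals. Their summed ratio was 0.954 (0.940 to 0.969), and of 86 members 3 were higher and 7 lower, against 17.3% and 19.0% of all genes. None passed 1.5-fold (background 3.68% and 3.63%). In the 156 and 186 T cells within the quartiles of UMIs that both libraries shared, 31 members passed 1.2-fold either way, against 56.5% of all genes, and 6 passed 1.5-fold, against 24.3%. With a stricter gate (214 and 241 cells) 21 passed 1.2-fold (50.8% of all genes) and 3 passed 1.5-fold (17.1%). Uqcr11, a small subunit of complex III, was at 112 and 150 CPM (log2 0.41), and Ndufa3 of complex I at 89.4 and 116 CPM (log2 0.36). Ndufv1, the subunit that takes electrons from NADH, was at 66.0 CPM (54.3 to 79.6) and 48.0 CPM (37.7 to 60.2), a log2 ratio of -0.42. These level intervals overlap, and the ratio of CPM was 0.726 (0.534 to 0.984). Ndufb10 of complex I was at 211 and 165 CPM (log2 -0.34, or -0.09 with the stricter gate). The Rieske protein gene of complex III, Uqcrfs1, was at 134 and 108 CPM (log2 -0.29).

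**Figure D2:**
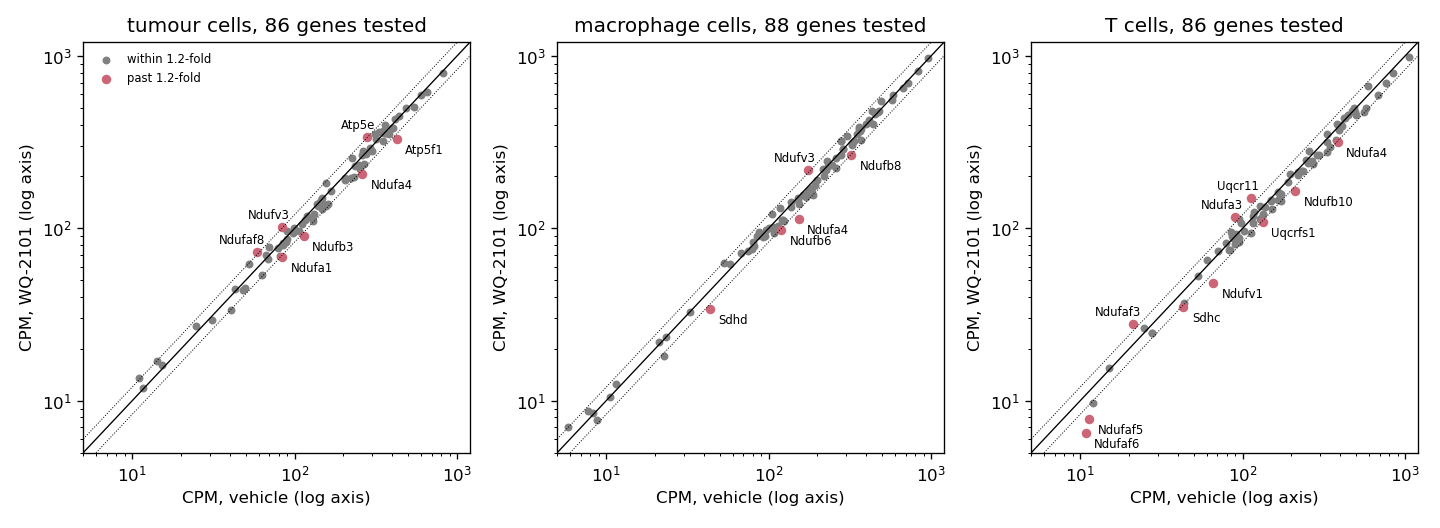
CPM of each member tested in vehicle (horizontal, log axis) and WQ-2101 (vertical, log axis) in tumour cells, macrophages and T cells; dotted lines mark a ratio of 1.2 and named red points passed 1.2-fold in CPM plus 5. Points keep close to the diagonal in all 3 classes, and Ndufa4 lies under it in each.

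Ndufa4 (GRCm38 chr6:11900292-11907497, minus strand) was the only 1 of 86 members lower by 1.2-fold or more in all 3 classes. The background was 0.581% of the 8093 genes tested in all of them. A count of 1 in 86 is near that share and is not read as a result about the members. The call of Ndufa4 ended in tumour cells within the quartiles of UMIs shared by both libraries (log2 -0.22). It also ended in tumour cells with clusters at the same share (log2 -0.19), where macrophages were at -0.35 and T cells at -0.28. Its level differed between clusters, from 178 to 331 CPM in vehicle tumour cells and from 75.2 to 221 CPM in vehicle macrophages, and the clusters took different shares of the libraries. Clusters with at least 20 cells of the class in each library were also read singly. Ndufa4 was lower in WQ-2101 in 7 of 7 tumour clusters (log2 -0.43 to -0.11) and 4 of 4 macrophage clusters (-0.47 to -0.14). It was also lower in the 1 T cell cluster, which held 412 of 427 and 467 of 491 T cells. These clusters are parts of the same 2 libraries and the same cells, not replicates. The share of all genes lower in every cluster was not counted. No member was higher in all 3 classes (background 0.951%). In T cells Ndufa4 was at 386 CPM (357 to 417) in vehicle and 316 CPM (288 to 345) in WQ-2101. Outside the compared classes it was at 354 and 280 CPM in fibroblasts, 300 and 232 CPM in NK cells, 167 and 95.8 CPM in dendritic cells, 386 and 359 CPM in endothelial cells, and 92.4 and 87.8 CPM in neutrophils. The vehicle value was the higher in each of these, while mural cells had 52.0 and 184 CPM, B cells 0 (of 13099 UMIs) and 210 CPM, and the cells with Ctsk, Acp5 and Mmp9 described below 1145 and 1472 CPM. None of these classes had at least 100 cells in each library, so their directions are not a comparison. The ratio intervals in NK cells (0.52 to 1.15), endothelial cells (0.51 to 1.59) and neutrophils (0.36 to 2.36) included 1. The sign was shared by more genes at smaller size: 33 of 86 members were below 0 in all 3 classes, against 20.9% of all genes, and 14 were above 0, against 17.8%. Among the 14 were Atp5e, Ndufs7, Ndufaf8, Cox7c, Cox6c and Ndufa13.

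Lists around the chain were set beside it in the same cells. Mitochondrially encoded subunits, the partners made inside the organelle, had a summed ratio of 1.08 in tumour cells, 1.03 in macrophages and 0.943 in T cells, and 1, 1 and 0 of 13 were higher by 1.2-fold, with 0, 0 and 1 lower. The shares of all genes for such calls, in the same order, were 5.9%, 10.7% and 17.3% higher and 6.24%, 5.57% and 19.0% lower. TCA cycle genes had ratios of 0.949, 0.957 and 0.950, with 1, 2 and 0 of 16 lower and 0, 1 and 0 higher. The 5 genes for proton leak and ATP export (Ucp2, Slc25a3, Slc25a4, Slc25a5 and Atpif1) had 0.826, 0.891 and 0.850, with 2, 1 and 2 lower and 0 higher, in lists too short to read against those shares. The 77 subunits had 0.973, 0.990 and 0.954. A sum over 77 genes depends less on single genes than a sum over 5, so the lists are not ranked by distance from 1.

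Isoforms known from particular tissues were rare, with a pair of exceptions in the mural gate, which held 19 vehicle and 15 WQ-2101 cells. Ndufa4l2 (chr10:127514967-127517154, plus strand), a paralogue of Ndufa4 known as a hypoxia-responsive and pericyte gene, was at 1222 CPM (1029 to 1441) in vehicle and 482 CPM (347 to 652) in WQ-2101 mural cells. It made up 95.9% (91.3 to 98.5) and 72.4% (59.1 to 83.3) of the UMIs of Ndufa4l2 and Ndufa4 together, and had a UMI in 18 of 19 and 11 of 15 cells. Fibroblasts came next, at 144 and 181 CPM, or 28.9% and 39.2% of that pair, with a UMI in 79 of 175 and 33 of 63 cells. Their summed mural markers stood at 1679 and 1900 CPM, against 12715.5 and 7450.26 CPM in the mural gate, and the part of those cells in the fibroblast value was not tested. Tumour cells had Ndufa4l2 at 0.405 and 0.529 CPM, and 0.514% and 0.702% of them had a UMI of it at median depths of 16561.5 and 13636 UMIs, against medians of 5398 and 4219 UMIs in mural cells.

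Cox4i2 (chr2:152754173-152765037, plus strand), the isoform of complex IV subunit 4 known from lung and from oxygen sensing, was likewise led by the mural gate. It stood there at 234 CPM (154 to 340) and 172 CPM (96.4 to 284), 23.7% and 20.8% of the UMIs of both Cox4 genes. In macrophages it was at 7.77 and 8.68 CPM, with a UMI in 5.20% (4.52 to 5.95) and 4.80% (4.11 to 5.57) of cells, whereas in tumour cells it was at 0.181 and 0.260 CPM with a UMI in 0.327% and 0.382%, although tumour cells were deeper. Mural markers summed to 17.9 and 17.3 CPM in the macrophages and to 93.8 and 109 CPM in tumour cells. The part of mural RNA in the Cox4i2 values of either class was not tested. Cox4i2 was not among the genes that mark any gate.

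**Figure D3:**
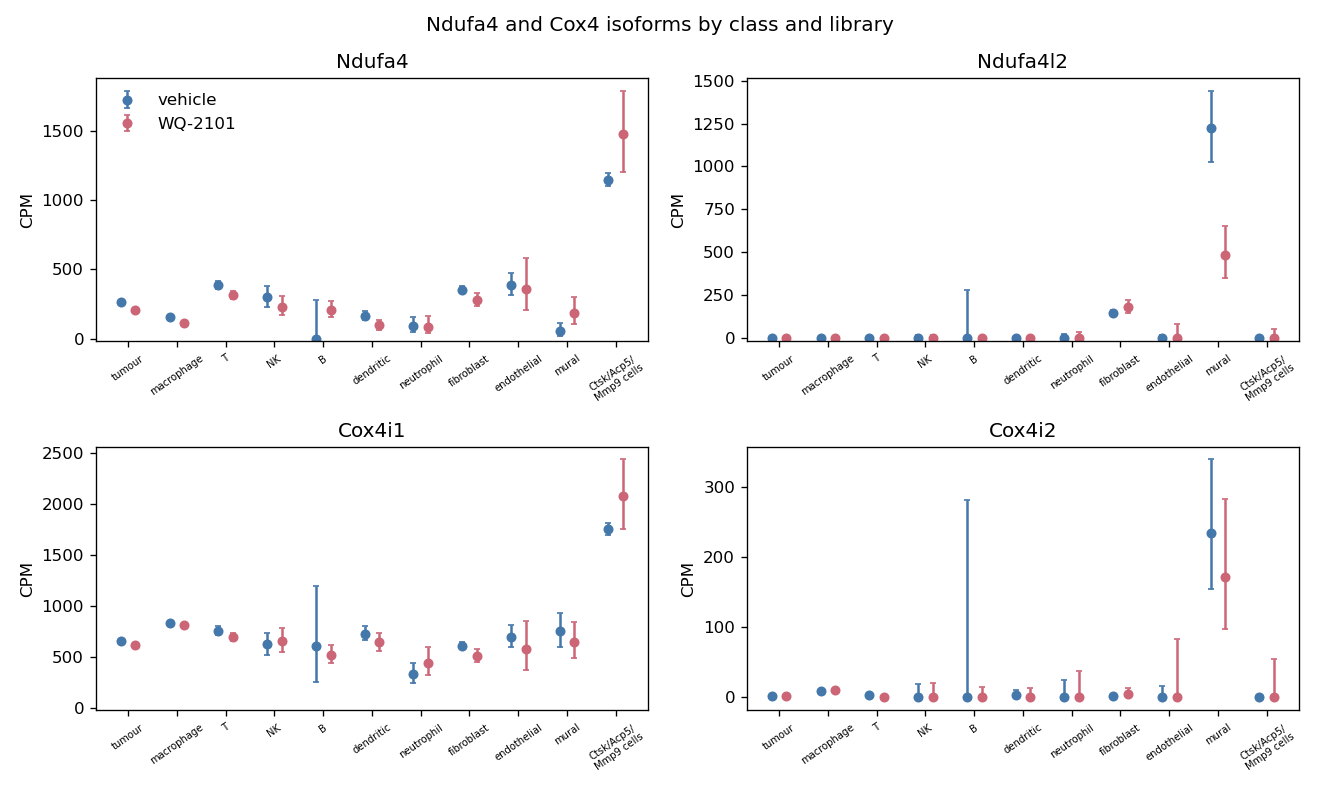
CPM of Ndufa4, Ndufa4l2, Cox4i1 and Cox4i2 (vertical axes) in each class (horizontal axes) and library, with exact 95% Poisson intervals. The paralogue Ndufa4l2 stands out in mural cells and less so in fibroblasts, Cox4i2 in mural cells, and Ndufa4 and Cox4i1 in the cells with Ctsk, Acp5 and Mmp9.

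The other isoforms were at low levels in tumour cells and macrophages. Cox7a1, the heart and muscle form of subunit 7a, was at 3.60 and 4.45 CPM in tumour cells and 8.31 and 8.46 CPM in macrophages, at most 1.87% of the UMIs of Cox7a1 and Cox7a2 in either class. It was higher in the cells with Ctsk, Acp5 and Mmp9, at 19.7 CPM in vehicle and 28.9 CPM (2 UMIs) in WQ-2101, and mural cells had 3 UMIs of it per library, 6.12% (1.28 to 16.9) and 9.38% (1.98 to 25.02) of that pair. Cox6a2, the heart and muscle form of 6a, was at 2.82 and 3.46 CPM in tumour cells and at 1.04 and 1.86 CPM in macrophages. Cox6b2, the testis form of 6b, was at 4.42 and 3.02 CPM in macrophages and 0.0949 and 0.0756 CPM in tumour cells. Cox7b2, Cox8b and Cox8c had at most 1 UMI in each whole library. The genes Atp5g1, Atp5g2 and Atp5g3, encode the same mature c subunit of ATP synthase with different import sequences. Atp5g2 gave 58.1% and 59.6% of their joint UMIs in tumour cells, 46.6% and 49.9% in macrophages, and 55.7% and 57.6% in T cells.

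Tumour cells and macrophages differed in which members they used rather than in the sum alone. Tumour cells had 0.886 and 0.872 times the macrophage sum in vehicle and WQ-2101. At 1.2-fold in both libraries, 19 of 87 members were higher in tumour cells, against a background of 53.0%, and 32 were lower, against 22.9%. Complex IV and complex V leaned to macrophages, with 7 of 12 and 9 of 17 lower in tumour cells. Ndufa4 of complex IV and Atp5a1, Atp5b and Atp5g2 of complex V were higher there. Of the assembly factors, 6 of 8 were higher in tumour cells, a short list beside the 53.0% of all genes. Complex I had 8 of 36 higher and 10 lower. The 4 complex II genes all stayed within 1.2-fold.

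Of single genes, Atp5a1, the alpha subunit of the catalytic head, was at 546 and 504 CPM in tumour cells and 337 and 321 CPM in macrophages. The NADH-binding subunit gene Ndufv1 was at 89.9 and 96.7 against 58.0 and 61.8 CPM. The assembly factor Ndufaf2 was at 49.3 and 44.8 against 23.5 and 23.4 CPM. In the other direction, Ndufv3 was at 83.5 and 102 against 174 and 218 CPM, and Atp5e at 280 and 338 against 583 and 597 CPM. Atp5l, the g subunit of ATP synthase, was at 383 and 351 against 723 and 694 CPM. Both libraries gave the same direction for each of these. Ndufa4 was higher in T cells than in macrophages, by 2.46-fold in vehicle and 2.71-fold in WQ-2101, and no other of the 77 subunits was higher there by 1.5-fold or more in both libraries (background 21.1% of all genes). At 1.2-fold, 7 of 87 members were higher in T cells (background 36.1%) and 14 lower (24.3%). Sdhc, a membrane anchor of complex II, was among the lower, at 43.2 and 34.99 CPM against 79.2 and 75.6 CPM.

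The highest levels of the chain were in a small group of cells defined by Ctsk, Acp5 and Mmp9, which encode a cathepsin, an acid phosphatase and a gelatinase known together from bone-resorbing cells. No marker list for such cells was fixed, so they are called by these genes. There were 153 in vehicle (1.12% of kept cells) and 7 in WQ-2101 (0.0405%), and the latter values rest on those 7 cells. Their 94 respiratory chain genes summed to 42260.9 CPM (41979 to 42545) in vehicle and 47434.8 CPM (45827 to 49085) in WQ-2101, 2.10 and 2.38 times the macrophage sums. Thinned to 1000 UMIs per cell, the median cell held 41 UMIs of these genes in vehicle against 20 in a macrophage, and 51 against 19 in WQ-2101. The 10th percentile of the vehicle group (23.2 UMIs) lay above the median macrophage, so most of the cells shared the difference.

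Nearly every subunit shared in this. At 1.2-fold in both libraries 73 of the 77 subunits were higher than in macrophages, and 68 at 1.5-fold, against 23.3% and 13.5% of all 8599 genes tested. None was lower at either size (background 23.6% and 15.4%). Complexes II to V had all their members higher at 1.2-fold, and complex I had 32 of 36. Assembly factors of complex I differed less, with 5 of 8 higher, and Ndufaf7, at 5.41 against 11.6 CPM in vehicle and 0 UMIs in the 7 WQ-2101 cells, was lower. That gene was named after its values were seen. As a sum, the assembly factors were at 1.53-fold (1.39 to 1.68) in vehicle and 1.23-fold (0.67 to 2.07) in WQ-2101. In the 7 WQ-2101 cells each of them rested on few UMIs. In vehicle, complex II had the largest ratio, at 915 against 300 CPM (3.05-fold, 2.90 to 3.20), then complex III at 4832 against 1895 CPM (2.55-fold), with complexes I, IV and V between 2.02-fold and 2.10-fold.

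Ndufa4 again stood apart, at 1145 CPM (1099 to 1192) in vehicle against 154 CPM in macrophages, and at 1472 CPM (1201 to 1787) in WQ-2101 against 113 CPM. On the CPM plus 5 scale that is 7.24-fold and 12.5-fold, ahead of every other member. Uqcr10, a small subunit of complex III, was next, at 1051 and 1429 CPM against 280 and 320 CPM. Sdha was at 290 and 274 CPM against 80.8 and 79.1 CPM. The 4 subunits short of 1.2-fold in at least 1 library were Ndufb7, Ndufa7, Ndufv3 and Ndufs4, and Ndufb7 was at 188 against 201 CPM in WQ-2101. They were named after their values were seen.

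Other mitochondrial genes were higher in the same cells. Mitochondrially encoded subunits summed to 44201 against 22668 CPM in vehicle (1.95-fold), and TCA cycle genes to 2752 against 956 CPM (2.88-fold), with 14 of 16 higher at 1.2-fold in both libraries. Cyc1, the cytochrome c1 subunit of complex III that the symbol rule misses, was at 382 against 85.5 CPM. Among regulators of mitochondrial genes, Ppargc1b, the coactivator PGC-1 beta, was at 150 against 6.38 CPM in vehicle (23.4-fold, 19.6 to 28.1) and at 159 against 7.60 CPM in WQ-2101. Esrra, a nuclear receptor it is known to act with, was at 47.2 against 17.5 CPM in vehicle, and Nrf1 at 42.3 against 58.7 CPM. Ribosomal proteins were at 1.14-fold. The share of mitochondrial UMIs per cell had a median of 4.0% there against 2.13% in macrophages, and the median depth was 12278 against 7739 UMIs. Macrophages with UMI totals between the quartiles of these cells gave 2.07-fold in vehicle and 2.38-fold in WQ-2101. All 13 macrophage markers were detected in the vehicle cells, summing to 2105 CPM against 16500.1 CPM in the macrophage gate, and tumour markers summed to 130 against 145 CPM.

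**Figure D4:**
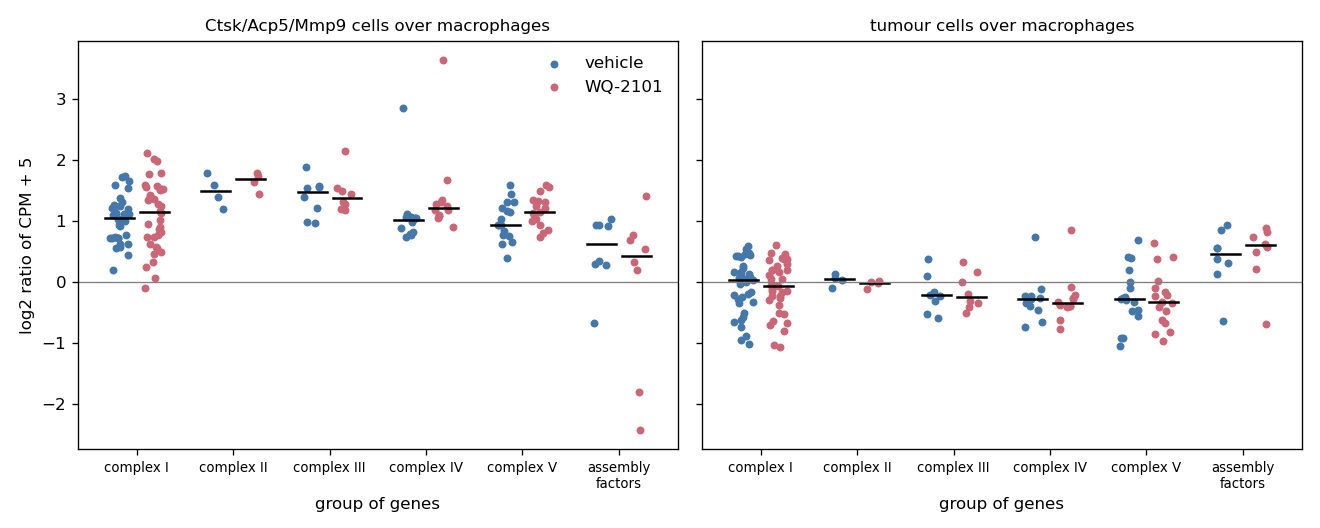
Log2 ratio of CPM plus 5 for each tested member by group (horizontal axis), in Ctsk, Acp5 and Mmp9 cells over macrophages (left) and tumour cells over macrophages (right), with 1 point per gene and library and bars at the medians. Nearly all subunits lie above 0 on the left, with Ndufa4 the top point of complex IV, while on the right the complexes straddle 0.

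A weaker difference ran with the cell cycle. Cells with at least 1000 CPM and 4 of 8 cycling markers such as Mki67 and Top2a had a higher respiratory chain sum than cells under 300 CPM of them. In tumour cells the sums were 18193 against 16683 CPM in vehicle (ratio 1.09) and 17703 against 16036 CPM in WQ-2101 (1.10). Macrophages gave ratios of 1.05 and 1.05, and T cells 1.13 and 1.2, from 48 and 57 cycling cells. Cycling cells also had more UMIs, a median of 21709 against 13123 in vehicle tumour cells, and the part of depth was not tested.

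Few members passed 1.2-fold with cycling outside T cells. In both libraries, 8 of 86 were higher in cycling tumour cells (background 10.9%) and 0 lower (10.1%). Macrophages had 7 of 88 higher (20.6%) and 1 lower (6.33%). T cells had 26 of 86 higher (18.6%) and 1 lower (13.6%). At 1.5-fold, 2 members, Ndufab1 and Uqcrc1, were higher in T cells, against 8.66% of all genes, and 0 lower (4.28%). Neither tumour cells (background 4.5% higher and 0.783% lower) nor macrophages (8.17% and 0.672%) had any member past 1.5-fold. Ndufa5, an accessory subunit of complex I, was at 122 against 90.6 CPM in vehicle and 114 against 82.9 CPM in WQ-2101 tumour cells. Cox5a, a subunit of complex IV, was at 427 against 331 and 401 against 315 CPM. Uqcrc1, a core protein of complex III, was at 115 against 67.0 and 151 against 77.3 CPM in T cells. The acyl carrier protein gene Ndufab1, a complex I subunit, was at 185 against 103 and 154 against 93.7 CPM there.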

How the data were processed

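The members and gene lists were chosen with earlier results of these data known. Both libraries were deposited as whole-number UMI counts for each gene and cell barcode. Cell Ranger 7.2.0 is the version per the file headers, whereas 2.2.2 stands in the submitters' processing notes, with the build GRCm38. How reads shared with processed pseudogenes, of which respiratory chain genes have many, were counted was not stated. Coordinates came from GENCODE vM21.

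Barcodes were kept with at least 500 UMIs, 300 genes and at most 15% mitochondrial UMIs. Scrublet in scanpy 1.11.5 removed 545 vehicle (3.83%) and 752 WQ-2101 (4.17%) barcodes as doublets. Classes were gated on summed marker CPM, with thresholds set after the data were seen; the gate on Ctsk, Acp5 and Mmp9 (all 3 detected, at least 5000 CPM) was added after the data were seen too. Leiden clusters at resolution 1 from 2000 variable genes, of which Ndufa4l2 is the only member, served as an alternative. Summed counts of a class in a library were scaled to the total of that class. Shares have exact Clopper-Pearson intervals, levels exact Poisson intervals and ratios exact conditional intervals. Genes named in the comparison of libraries are the core subunits, the isoforms and the 5 highest and 5 lowest ratios at 20 CPM or more per class. The code was tested on simulated data.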

Additional observations from a re-analysis of the deposited data

How the results depend on the processing

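No paired analysis was possible because each group has 1 library. With 1 library per group, mice and treatment cannot be told apart. Settings called added were chosen after seeing the data. The WQ-2101 over vehicle ratio of the summed genes stayed between 0.965 and 1.01 in tumour cells, 0.981 and 1.00 in macrophages and 0.938 and 0.968 in T cells. It crossed 1 in tumour cells with cells weighted alike (1.00463, macrophages 0.99666) and with Leiden clusters at the same share in both libraries (added, 1.01257, macrophages 0.990) and in macrophages without mitochondrially encoded and ribosomal protein genes in the denominator (1.00362, tumour 0.992). The cause was not tested. Other values past the counting interval, for tumour cells and macrophages in turn, were 0.985 and 0.981 when centred on the median gene, 0.965 and 0.985 with a stricter gate (T 0.938), 0.993 and 0.982 in the shared quartiles of UMIs (added), and 0.969 and 0.984 without the cluster with most ungated cells (added). The cluster with most ungated cells held 102 vehicle and 2885 WQ-2101 cells. Tumour cells gave 0.969 when gate and cluster had to match.

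Members past 1.2-fold numbered 5 to 8 in tumour cells, 3 to 6 in macrophages and 8 to 31 in T cells. They numbered 3 in macrophages without those denominator genes (18.0% of all genes there) and 3 with clusters at the same share (13.2%), and in T cells 21 with the stricter gate (50.8%) and 31 in the shared quartiles (56.5%). No member passed 1.5-fold in tumour cells or macrophages under any setting; in T cells 1 did with a pseudocount of 1 (13.5% of all genes), 1 with no minimum (6.45%), 3 with the stricter gate (17.1%) and 6 in the shared quartiles (24.3%). Each log2 ratio recomputed for Ndufa4, Atp5f1, Ndufb3, Ndufa1, Ndufaf8, Ndufv3, Atp5e, the 4 Sdh genes, Ndufb6, Ndufb8, Ndufb10, Ndufa3, Uqcrfs1, Ndufv1 and Uqcr11 kept its sign in the class where it is reported. Ndufb10 in T cells ran from -0.35 to -0.09.

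Cells with Ctsk, Acp5 and Mmp9 over macrophages kept a ratio above 1.7. In vehicle it was 2.22 without those denominator genes, 1.95 at 5% mitochondrial UMIs, 2.03 with doublet calls ignored, 2.12 with matching clusters, 2.07 against macrophages of like depth (added), 2.23 at a higher gate threshold (added) and 2.04 over the whole cluster (added). In WQ-2101 it was 2.52 without those denominator genes and 1.73 over the whole cluster, which has 17 cells.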

Other observations

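Macrophages differed among themselves in these genes. Of the cells in a Leiden cluster led by Mmp12, Hmox1, Mmp13 and Spp1, genes known from macrophages in stressed or remodelling tissue, 641 passed the macrophage gate and 563 had no class. Its 332 vehicle and 309 WQ-2101 gated macrophages summed to 16194.3 and 15884 CPM of respiratory chain genes, the lowest of the 4 macrophage clusters, of which the others lay between 19863.8 and 21093.4 CPM. Their Ndufa4 was at 75.2 and 67.6 CPM, against 154 and 113 CPM over the gate, and their Ndufa4l2 at 11.9 and 9.28 CPM, against 2.24 and 2.94 CPM. The median depth was 7479 and 6065 UMIs, against 7739 and 6389 UMIs over the gate. Clusters were set by variable genes that include Ndufa4l2, so these values are a description.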
